A study of Mus musculus with 4 samples.

Results

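The genes described here encode the subunits and accessory proteins of Polycomb repressive complex 2 (PRC2): Ezh2, Ezh1, Eed, Suz12, Rbbp4, Rbbp7, Jarid2, Aebp2, Mtf2 and Phf19. They were taken by gene symbol from the deposited tables. All 10 were found on 1 row each, among 21830 genes, and all 40 values had the status OK. Poly(A) RNA was sequenced from mouse retina of strain slc:ICR at postnatal day 12, sorted with an antibody against Cd73, a surface enzyme of rod photoreceptors and their precursors that is encoded by Nt5e. Cd73-positive cells (Cd73P) and Cd73-negative cells (Cd73N) were each taken from a wildtype and from an Ezh2-cKO retina sample, which gave 4 libraries with 1 library per group. In the Ezh2-cKO mice a floxed Ezh2 allele was recombined by Dkk3-Cre, which is active in retinal progenitors, and the controls were normal littermates. The number of retinas behind each library, and which Ezh2 exons were flanked by loxP sites, are not given in the sources used here. The Cd73N fraction was a mixture of interneurons, Müller glia, retinal ganglion cells and cones, and speed of sorting was put before purity.

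PRC2 methylates histone H3 at lysine 27, a mark of repressed genes. Ezh2 or its paralog Ezh1 carries the catalytic site and is active only together with Eed, which reads the mark, and Suz12, the scaffold, while the histone-binding proteins Rbbp4 and Rbbp7 are shared with other chromatin complexes. One form of the complex carries Jarid2 and Aebp2, another carries a Polycomb-like protein (Phf1, Mtf2 or Phf19), and in many tissues Ezh2 is abundant in dividing progenitors whereas Ezh1 persists in cells that have left the cell cycle.

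Levels are given as FPKM, a fragment number divided by the exon length of the gene and by the size of the library, so that levels of different genes can be set side by side. The ± after a value is a standard error (SE) taken from the width of the bounds deposited with it, which covers counting error in 1 library only. There is no replicate check on any difference below, no p-value was computed, and the numbers of fragments were not part of the tables, so that depth is unknown. Differences are given as log2 of FPKM + 1, which understates the change of low genes, and a gene was called higher or lower past 1.5-fold on that scale (0.58 in log2), the threshold of the study. The tables were not scaled between libraries. Scaling to a median ratio or to the FPKM sum shifted log2 ratios of FPKM, Cd73P against Cd73N, up by 0.31 or 0.42 in wild type and by 0.27 or 0.22 in Ezh2-cKO, and those between genotypes by 0.08 or 0.15 in Cd73N and by 0.04 or -0.05 in Cd73P; with the added 1 the shift is smaller, most so for low genes.

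In the order wild-type Cd73N, Ezh2-cKO Cd73N, wild-type Cd73P and Ezh2-cKO Cd73P, which is kept for all strings of 4 values below, Nt5e was at 0.84, 0.61, 125 and 123 FPKM. All 11 rod markers compared were higher past 1.5-fold in Cd73P in both genotypes, beside 9.07% of all genes in wild type and 8.4% in Ezh2-cKO. Ezh2, the targeted gene, did not follow the genotype label in both fractions. It was lower in the Cd73P library labelled Ezh2-cKO than in its control but not lower in the Cd73N library with that label. Each library is therefore called by its label here, and Ezh2 was not used to assign genotypes. Genotype differences of Ezh2 itself, and of shares or sums that include it, are differences between labels. FPKM sums fragments over all exons of a gene. The longest Ezh2 transcript has 20 exons, each holding 1.55% to 12.4% of its 2652 bases, so the FPKM of the gene is not a check on deleted exons.

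Ezh2 had an FPKM of 14.1 ± 0.43 in wild-type Cd73N, 15.9 ± 0.44 in Ezh2-cKO Cd73N, 5.38 ± 0.24 in wild-type Cd73P and 3.45 ± 0.18 in Ezh2-cKO Cd73P. Both Cd73N libraries were therefore above both Cd73P libraries. The level in Cd73P was 38.3% of the Cd73N level for wild type and 21.6% for the libraries labelled Ezh2-cKO, a log2 difference of -1.24 ± 0.07 and -1.93 ± 0.07. Ezh1 had the opposite order, with 7.34 ± 0.27, 6.73 ± 0.22, 11.7 ± 0.31 and 14.7 ± 0.37 FPKM. Its log2 difference of Cd73P against Cd73N was 0.61 ± 0.06 in wild type, just past the threshold, and 1.02 ± 0.05 in the libraries labelled Ezh2-cKO.

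Within a library the ratio of 2 genes does not depend on scaling, and the make-up of the catalytic pair differed between the fractions. Ezh1 made up 34.3% ± 1.1 and 29.7% ± 0.91 of the Ezh1 plus Ezh2 FPKM in Cd73N, wild type first. In Cd73P it made up 68.6% ± 1.1 in wild type and 81.0% ± 0.90 in Ezh2-cKO. The rod-enriched cells thus held more Ezh1 than Ezh2 transcript per length and the remaining cells more Ezh2 than Ezh1, in both genotypes. The sum of the pair was less spread, at 21.4 ± 0.51 and 22.7 ± 0.49 FPKM in Cd73N and at 17.1 ± 0.39 and 18.2 ± 0.42 FPKM in Cd73P, wild type first. In Cd73P, Ezh2 was 1.93 FPKM lower and Ezh1 2.98 FPKM higher in the library labelled Ezh2-cKO than in wild type. A link between these differences was not tested. No stretch of 36 bases, the read length, was shared by the longest annotated transcripts of Ezh1 and Ezh2, so a read matching either perfectly did not match the other.

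**Figure D1:**
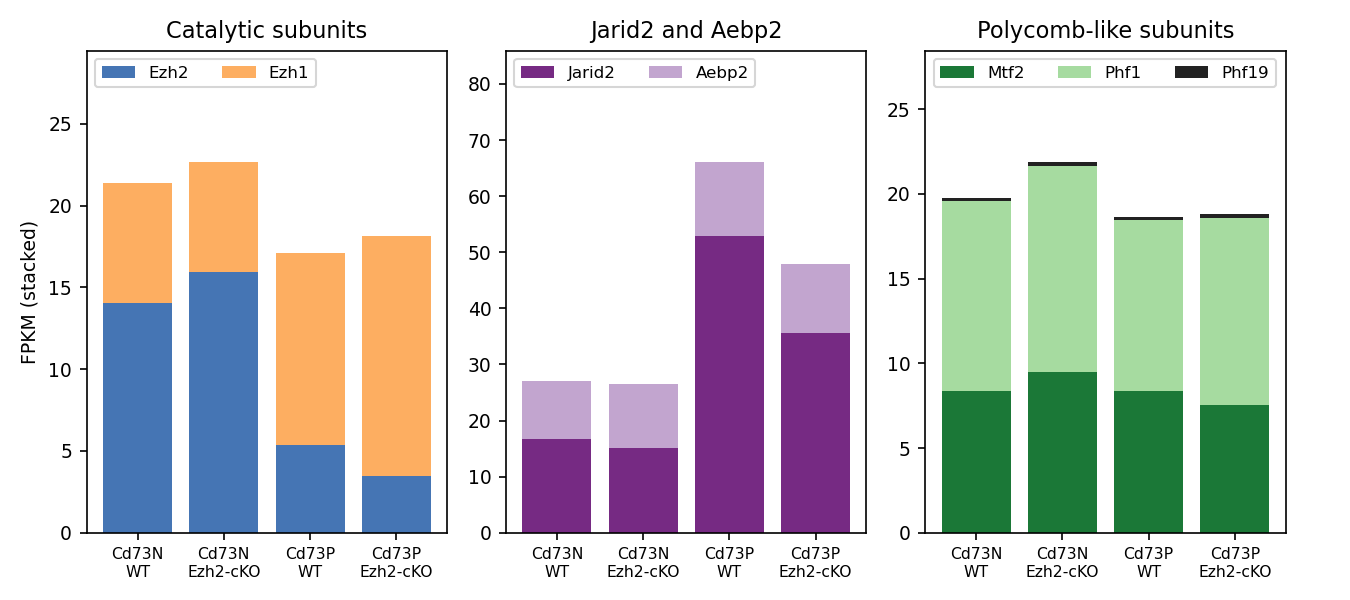
Stacked bars give FPKM in each of the 4 libraries (1 per group) for the catalytic subunits (left), Jarid2 and Aebp2 (middle) and the Polycomb-like subunits (right), each panel with its own vertical axis from 0. Ezh1 takes 34.3% and 29.7% of the left bars in Cd73N and 68.6% and 81.0% in Cd73P, while Jarid2 is the larger part of every middle bar.

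Ezh2 lies on the minus strand at chr6:47480273-47545029 and Ezh1 on the minus strand at chr11:101052429-101087764 (mm9). The 250 bases before the start of each are shown because these paralogs were ordered oppositely over the 4 libraries. The sequences are from RefSeq on GRCm38.p6, and each matched mm9 exactly once, at chr6:47545030-47545279 for Ezh2 and at chr11:101087778-101088027 for Ezh1. They are written on the strand of the gene. The third line is a 30-base window over the Ezh2 start, chr6:47545007-47545036, in which capitals mark TTTGGCGC, a binding sequence of E2F factors, which regulate cell cycle genes.
Ezh2 promoter: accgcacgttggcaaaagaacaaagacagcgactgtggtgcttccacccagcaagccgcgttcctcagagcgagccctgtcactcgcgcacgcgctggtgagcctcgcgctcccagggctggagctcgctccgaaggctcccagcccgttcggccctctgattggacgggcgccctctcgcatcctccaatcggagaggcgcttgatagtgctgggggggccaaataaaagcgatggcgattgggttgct
Ezh1 promoter: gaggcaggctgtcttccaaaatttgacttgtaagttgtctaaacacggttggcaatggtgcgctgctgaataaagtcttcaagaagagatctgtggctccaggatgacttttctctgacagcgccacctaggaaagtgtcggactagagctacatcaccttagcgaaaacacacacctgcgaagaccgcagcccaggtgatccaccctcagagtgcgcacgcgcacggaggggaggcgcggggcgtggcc
Ezh2 start window: ggttgctgcgTTTGGCGCtcggtccggtcg

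The promoter windows of 250 bases before to 50 bases after the start were searched on both strands for TTTGGCGC and TTTCCCGC, both E2F-type, and for TAATCC, the sequence that the photoreceptor factors CRX and OTX2 bind. The letters were chosen with the levels already known. Ezh2 held TTTGGCGC from base 4 after its start, while Suz12 and Phf19 held TTTCCCGC at 219 and 208 bases before theirs. An E2F-type sequence was thus present in 3 of the 14 promoters listed for the 10 genes, against 1.56% of all 32851 promoters. TTTGGCGC alone was in 0.514% and TTTCCCGC in 1.07% of them. TAATCC was in none of the 14 and in 7.06% of all promoters. These are matches of letters, not measured binding. The 250 bases before the start were 63.6%, 73.6% and 75.2% G or C in Ezh2, Suz12 and Phf19. All promoters were counted without matching for this base content, so the shares do not show an enrichment. Of these 3 genes only Ezh2 was past the threshold between the fractions on the unscaled values.

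**Figure D2:**
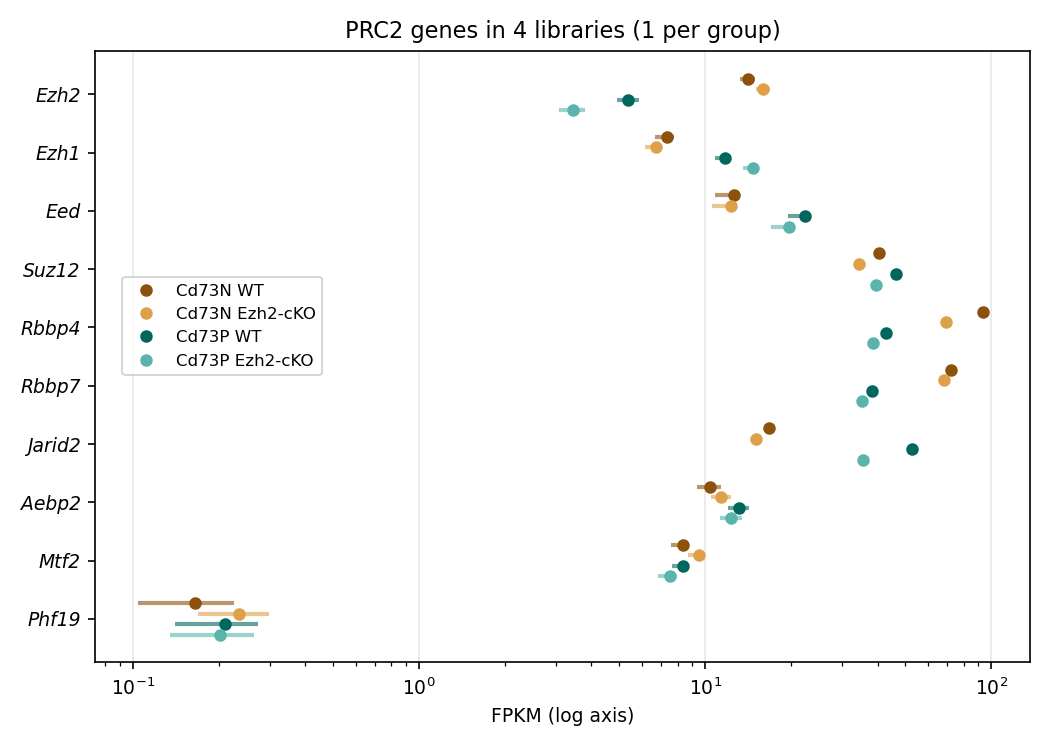
Points give FPKM on a log axis for the 10 PRC2 genes in the 4 libraries (1 per group), and horizontal lines run between the deposited lower and upper bounds. Ezh2 is lowest in Ezh2-cKO Cd73P at 3.45 FPKM, Rbbp4 is highest in wild-type Cd73N at 93.6 FPKM, and Phf19 stays below 0.24 FPKM in every library.

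The other core subunits did not move together between the fractions. Eed (chr7:97103164-97129486, minus strand) was at 12.6 ± 0.47 and 12.3 ± 0.43 FPKM in Cd73N and at 22.4 ± 0.63 and 19.6 ± 0.56 FPKM in Cd73P, wild type first. Its values in the Cd73P libraries were above those in Cd73N in both genotypes, with log2 differences of 0.78 ± 0.06 and 0.63 ± 0.06. In both Cd73P libraries the FPKM of Eed lay above its own deposited upper bound, as it did for 23.8% to 26.6% of genes with FPKM above 1 over the 4 libraries, so the SE of Eed may not cover its counting error. Suz12 (chr11:79806608-79847625, plus strand) was at 40.6 ± 0.58 and 34.4 ± 0.49 FPKM in Cd73N and at 46.2 ± 0.62 and 39.5 ± 0.55 FPKM in Cd73P. Its fractions differed by only 0.18 ± 0.03 and 0.20 ± 0.03 in log2, within the threshold, and each Ezh2-cKO library was below its control.

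The 250 bases before the start of Suz12 (chr11:79806358-79806607, plus strand, mm9; RefSeq on GRCm38.p6) are shown with TTTCCCGC in capitals, and those of Jarid2 (chr13:44825893-44826142, plus strand) because that gene had the widest difference towards Cd73P of the 10 in each genotype.
Suz12 promoter: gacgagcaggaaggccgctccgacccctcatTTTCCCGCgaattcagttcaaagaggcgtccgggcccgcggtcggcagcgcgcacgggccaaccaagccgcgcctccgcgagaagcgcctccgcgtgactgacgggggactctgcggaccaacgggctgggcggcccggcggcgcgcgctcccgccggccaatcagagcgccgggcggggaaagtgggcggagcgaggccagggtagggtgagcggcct
Jarid2 promoter: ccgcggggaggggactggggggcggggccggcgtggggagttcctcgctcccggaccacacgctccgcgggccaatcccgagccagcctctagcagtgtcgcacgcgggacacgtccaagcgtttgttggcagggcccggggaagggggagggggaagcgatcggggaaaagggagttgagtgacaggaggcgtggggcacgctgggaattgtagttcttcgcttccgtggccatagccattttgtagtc

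Rbbp4 and Rbbp7, histone-binding proteins of PRC2 and of several histone deacetylase complexes, were the most abundant of the 10 in Cd73N. Rbbp4 (chr4:128984344-129012614, minus strand) was at 93.6 ± 0.94 and 69.4 ± 0.73 FPKM in Cd73N and at 42.7 ± 0.62 and 38.7 ± 0.56 FPKM in Cd73P, wild type first. Rbbp7 (chrX:159198304-159217022, plus strand) was at 72.3 ± 1.1 and 68.5 ± 1.04 FPKM in Cd73N and at 38.4 ± 0.87 and 35.4 ± 0.75 FPKM in Cd73P. Both were lower in Cd73P in both genotypes, Rbbp4 by a log2 difference of -1.12 ± 0.03 and -0.83 ± 0.03 and Rbbp7 by -0.90 ± 0.04 and -0.93 ± 0.04. Their proportion to each other was less variable, Rbbp4 making up 56.4%, 50.3%, 52.6% and 52.2% of the pair. Of the exon bases of the longest transcript, 7.71% in Rbbp7 and 3.74% in Rbbp4 matched another place in the genome over at least 36 bases, and these 2 transcripts shared no such stretch with each other.

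Jarid2 (chr13:44826143-45017012, plus strand), a Jumonji-family protein without demethylase activity that recruits PRC2 to its targets, had the widest positive difference between the fractions. It was at 16.7 ± 0.33 and 15.0 ± 0.27 FPKM in Cd73N and at 52.9 ± 0.63 and 35.6 ± 0.56 FPKM in Cd73P, wild type first. The log2 differences were 1.61 ± 0.03 and 1.19 ± 0.03, and in wild-type Cd73P Jarid2 was the most abundant of the 10. Aebp2 (chr6:140571184-140625939, plus strand), its zinc finger partner, was at 10.4 ± 0.50, 11.4 ± 0.46, 13.1 ± 0.55 and 12.3 ± 0.54 FPKM and stayed within the threshold, with log2 differences of 0.31 ± 0.08 and 0.11 ± 0.08. Jarid2 therefore made up 80.1% ± 0.69 and 74.2% ± 0.89 of the pair in Cd73P against 61.6% ± 1.2 and 56.9% ± 1.1 in Cd73N.

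The Polycomb-like members were not called in any comparison. Mtf2 (chr5:108494761-108538021, plus strand), which binds unmethylated CpG-rich DNA, was at 8.34 ± 0.28, 9.51 ± 0.28, 8.39 ± 0.28 and 7.53 ± 0.28 FPKM. Phf19 (chr2:34749275-34769496, minus strand), its close relative, was at 0.16 ± 0.03, 0.23 ± 0.03, 0.21 ± 0.03 and 0.20 ± 0.03 FPKM, and its deposited bounds overlapped between all libraries. Phf1, the third Polycomb-like protein and not one of the 10, was at 11.2, 12.1, 10.1 and 11.1 FPKM. The sum of Jarid2 and Aebp2 over the sum of Mtf2, Phf19 and Phf1 was 1.37 ± 0.05 and 1.21 ± 0.04 in Cd73N and 3.54 ± 0.10 and 2.55 ± 0.08 in Cd73P, so the balance between both accessory sets leaned further to Jarid2 and Aebp2 in Cd73P. Of these 5 genes only Jarid2 was past the threshold between the fractions.

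With Suz12 as the common denominator within each library, Ezh2 was at 0.346 ± 0.012 and 0.463 ± 0.014 of Suz12 in Cd73N and at 0.116 ± 0.005 and 0.087 ± 0.005 in Cd73P, wild type first. Ezh1 was at 0.181 ± 0.007 and 0.196 ± 0.007 in Cd73N and at 0.254 ± 0.008 and 0.372 ± 0.011 in Cd73P. Ezh1 plus Ezh2 came to 0.527 ± 0.015 and 0.659 ± 0.017 of Suz12 in Cd73N and to 0.370 ± 0.010 and 0.459 ± 0.012 in Cd73P. No genotype direction is read from this sum. It includes Ezh2, whose FPKM is not a check on deleted exons, and Suz12 itself was lower in each library labelled Ezh2-cKO. Eed relative to Suz12 was higher in Cd73P (0.484 ± 0.015 and 0.495 ± 0.016) than in Cd73N (0.309 ± 0.012 and 0.357 ± 0.013). Rbbp4 plus Rbbp7 came to 4.08 ± 0.07 and 4.01 ± 0.07 of Suz12 in Cd73N and to 1.75 ± 0.03 and 1.88 ± 0.04 in Cd73P.

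**Figure D3:**
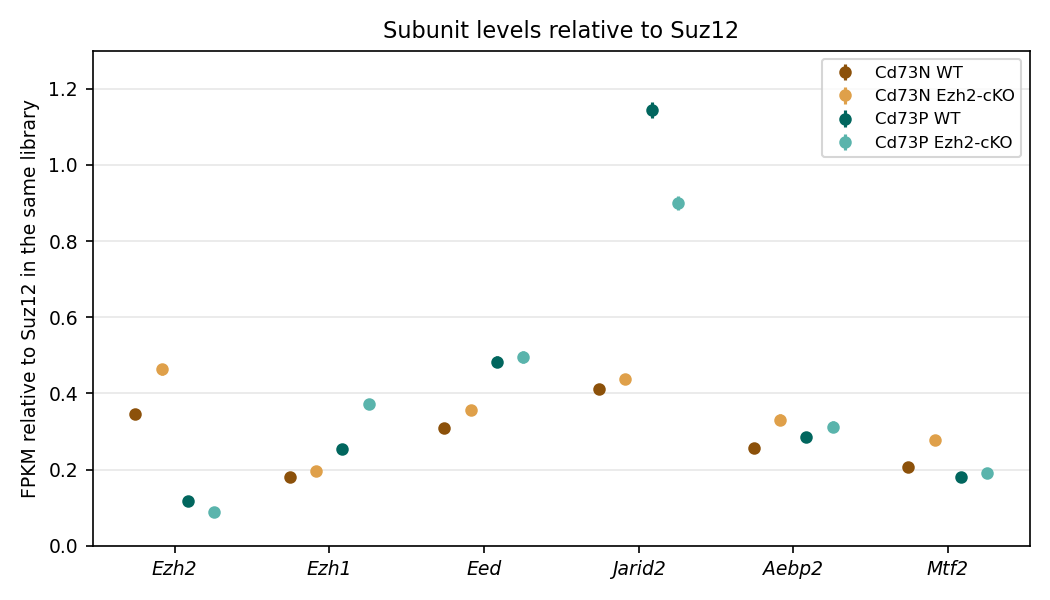
Points give the FPKM of 6 PRC2 genes divided by the FPKM of Suz12 in the same library, with SE from the deposited bounds (1 library per group, linear axis from 0). Jarid2 stands at 1.15 and 0.900 in the Cd73P libraries against 0.411 and 0.437 in Cd73N, and Ezh2 is the gene with the lowest Cd73P ratios.

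Counted over the 10 genes, Ezh1, Eed and Jarid2 were higher and Ezh2, Rbbp4 and Rbbp7 lower in Cd73P than in Cd73N in wild type, and the other 4 stayed within the threshold. Of all genes, 9.07% were higher and 27.9% lower past 1.5-fold in that comparison. The same 6 genes were called in the same directions between the libraries labelled Ezh2-cKO, where 8.4% of all genes were higher and 29.1% lower. Many of these genes were hardly expressed. Of genes that reached an FPKM of 5 in either library compared, called expressed genes here, 61.2% in wild type and 57.8% in Ezh2-cKO were past 1.5-fold in either direction, and 9 of the 10 PRC2 genes passed that filter, so 6 called of 10 is near what expressed genes did. The median log2 difference of the 10 genes was 0.12 in wild type and 0.03 in Ezh2-cKO, beside -0.44 and -0.39 over expressed genes. None of the 6 genes changed direction under either scaling. Scaling by the FPKM sum added Suz12 (0.59) and Aebp2 (0.70) to the higher genes in wild type and took Rbbp7 (-0.48) from the lower ones, and scaling to a median ratio added Aebp2 (0.60) in wild type and took Rbbp4 (-0.56) from the lower genes in Ezh2-cKO. The genotypes of this comparison and the fractions of the next share the same 4 libraries.

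**Figure D4:**
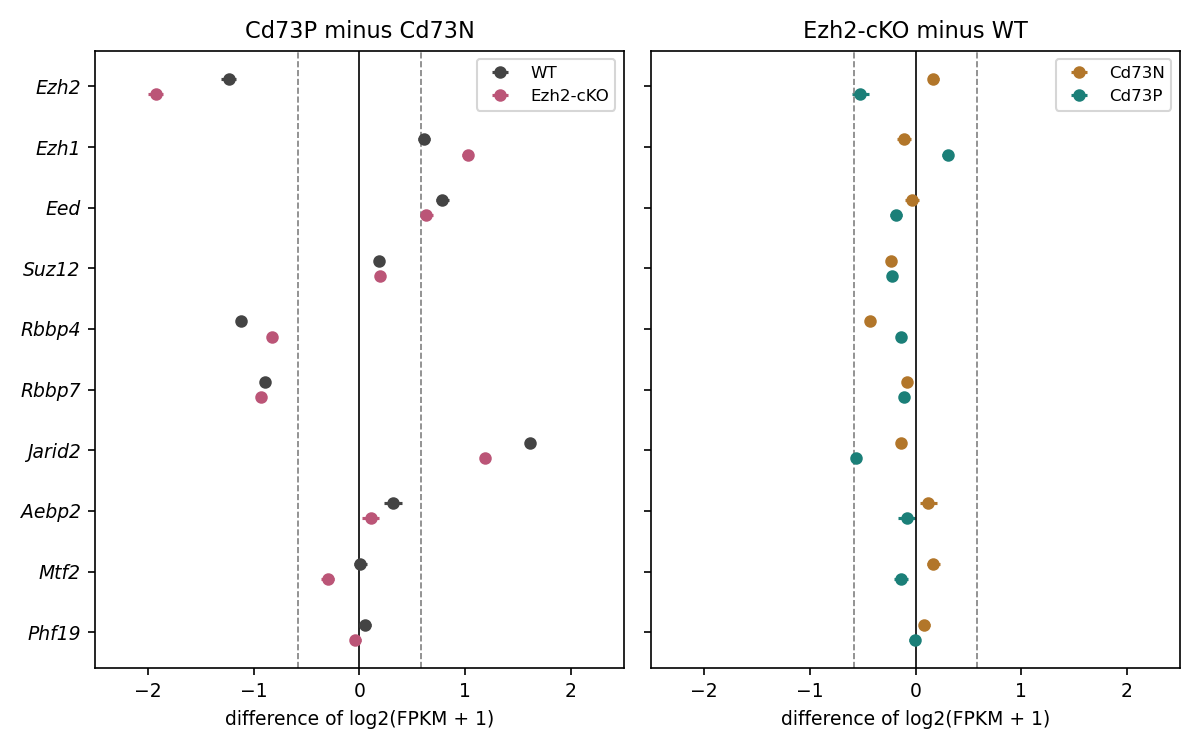
Points give the difference of log2(FPKM + 1) for the 10 PRC2 genes with SE from the deposited bounds, Cd73P minus Cd73N on the left and Ezh2-cKO minus WT (wild type) on the right, and dashed lines mark 1.5-fold. On the left 3 genes lie past each dashed line in both genotypes, and on the right none does in either fraction.

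Between genotypes, none of the 10 genes was past 1.5-fold in either fraction. In Cd73N, 7.18% of all genes were higher and 1.71% lower in the library labelled Ezh2-cKO, and 12.6% of expressed genes were past the threshold in either direction. In Cd73P the shares were 2.26% higher, 2.38% lower and 6.28% of expressed genes in either direction. At such shares a count of 0 of 10 is close to the background. In Cd73N the log2 differences ran from -0.43 ± 0.02 for Rbbp4 to 0.17 ± 0.06 for both Ezh2 and Mtf2, with 4 positive and 6 negative and a median of -0.05, beside -0.10 over expressed genes. With libraries scaled by the FPKM sum, Ezh1, Eed, Jarid2 and Rbbp7 turned from negative to positive there, and Eed also with the median ratio, so the sign of these 4 is not settled in Cd73N.

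In Cd73P, 9 of the 10 differences between genotypes were negative and Ezh1 was positive. Jarid2 was lowest at -0.56 ± 0.03, at 67.2% of its control, followed by Ezh2 at -0.52 ± 0.08, at 64.0% of its control, both just inside the threshold. Ezh1 was at 0.30 ± 0.05, or 125% of its control. The remaining 7 genes lay between -0.22 ± 0.03 (Suz12) and -0.01 ± 0.06 (Phf19), and the median of the 10 was -0.14, beside -0.04 over expressed genes. Since the median over expressed genes was negative too, the count of 9 is not read as a joint change of the 10 genes. Aebp2 and Phf19 differed from 0 by only 1.05 and 0.15 SE. Signs in Cd73P were the same under both scalings. Ezh2 was past the threshold with a pseudocount of 0.1 or with none, and Jarid2 (-0.61) with libraries scaled by the FPKM sum.

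**Figure D5:**
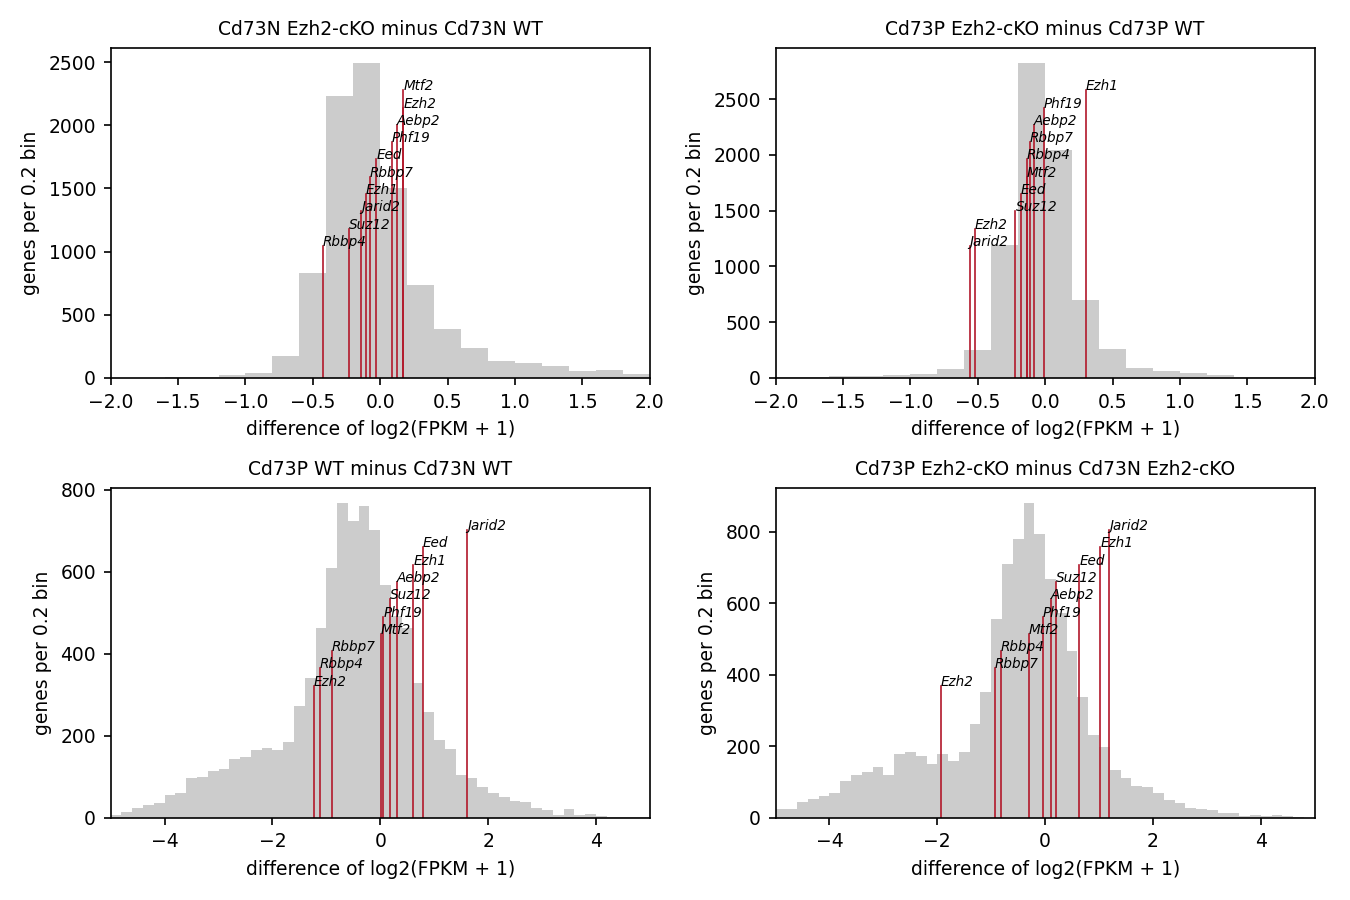
Grey bars count genes that reached an FPKM of 5 in either library compared by their difference of log2(FPKM + 1), in bins of 0.2, for the 4 comparisons; red lines mark the 10 PRC2 genes, Phf19 included although it is below that FPKM. Horizontal axes run further in the lower row, where Ezh2 and Jarid2 lie at opposite sides of the grey distribution's centre. In the upper row all red lines lie within 0.56 of 0.

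Markers of other cell types moved with both comparisons. In wild type, markers of cones, Müller glia and bipolar cells were in Cd73P at a median of 5.83%, 6.71% and 5.49% of their level in Cd73N, with 8 of 8, 12 of 12 and 10 of 12 lower past 1.5-fold, and in Ezh2-cKO at 2.07%, 3.74% and 2.46%, with the same counts. Ezh2 at 38.3% and 21.6%, and Rbbp4 and Rbbp7 at 45.6% to 55.8%, lay above those medians. None of the markers on these 3 lists was listed at 0. Markers of cycling cells, which Ezh2 accompanies in many tissues, summed to 14.0 and 13.5 FPKM over 12 genes in Cd73N and to 11.7 and 11.2 FPKM in Cd73P, wild type first, but Ccna2 alone was at 7.01 FPKM in wild-type Cd73P. Their median level in Cd73P was 15.4% of Cd73N in wild type, with 4 lower and 2 higher past 1.5-fold, and 17.2% in Ezh2-cKO, with 5 lower and 2 higher. Of these 12 genes, 7 in wild type and 6 in Ezh2-cKO were below 1 FPKM in both fractions, so the medians rest largely on very low values. Of all genes, 27.9% were lower and 9.07% higher in Cd73P in wild type, and 29.1% and 8.4% in Ezh2-cKO. The counts of cycling cell markers are not read as a result beside these shares. Between the genotypes, Müller glia markers summed to 1335 and 6156 FPKM in Cd73N, wild type first, where 12 of 12 were higher past 1.5-fold, and to 147 and 292 FPKM in Cd73P, where 9 of 12 were. Bipolar cell markers were lower in both fractions (8 of 12 past 1.5-fold in each), with sums of 2530 and 1444 FPKM in Cd73N (wild type first) and 516 and 288 FPKM in Cd73P. Of the Cd73P sums, 328 and 225 FPKM came from Otx2 alone, which is also a photoreceptor factor. Cone markers went opposite ways, with 3 of 8 higher and none lower in Cd73N (3795 and 5333 FPKM) and 6 of 8 lower and none higher in Cd73P (251 and 115 FPKM). Of the 11 rod markers with status OK in all libraries, 5 were lower and none higher in Cd73N (median log2 difference -0.22), and 2 were higher and none lower in Cd73P (0.29). Between genotypes, 7.18% of all genes were higher and 1.71% lower in Cd73N, and 2.26% and 2.38% in Cd73P. The part of these cell types in the PRC2 values was not tested, and a changed number of cells of a type and a changed amount of RNA per cell cannot be told apart in sorted bulk samples.

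Genes that work beside the 10 on the same mark were read from a list of 7 symbols of partners and demethylases, of which 6 were found. In wild type 2 of the 6 were higher in Cd73P, 1 was lower and 3 were within the threshold, and in Ezh2-cKO 2 were higher, 2 lower and 2 within it. Of all genes, 9.07% were higher and 27.9% lower in wild type, and 8.4% and 29.1% in Ezh2-cKO. Lcor, a PRC2 partner gene, was higher in Cd73P, with 1.11 and 1.13 FPKM in Cd73N and 4.57 and 3.88 FPKM in Cd73P, as was Kdm6a, which encodes an X-linked demethylase of the mark, with 6.82, 10.5, 14.8 and 17.4 FPKM. E130012A19Rik, the older symbol of Epop (which was the remaining symbol on the list), a PRC2 cofactor, was lower in Cd73P, at 3.80 and 5.19 FPKM in Cd73N and 0.23 and 0.13 FPKM in Cd73P. Lcorl, a relative of Lcor, was at 9.29, 8.93, 12.2 and 8.60 FPKM and Phf1, given above, differed little. Kdm6b, the other demethylase of the mark (also named Jmjd3), was the only one of the 6 past the threshold between genotypes. It was at 10.2 FPKM in wild-type Cd73P and 5.51 in Ezh2-cKO Cd73P, a log2 difference of -0.78, where 2.38% of all genes were lower. Kdm6b was also lower in Cd73P than in Cd73N in Ezh2-cKO (-0.80), which rests on the same Ezh2-cKO Cd73P value. In wild type that difference between the fractions was -0.23. It was at 12.1 and 10.3 FPKM in Cd73N. Kdm6a came nearest to the threshold among the rest, with a log2 difference of 0.56 between the Cd73N genotypes. The libraries also differed by genotype in transcripts of the sex chromosomes, Xist with 52.2, 240, 47.0 and 95.6 FPKM and the Y-linked Ddx3y with 11.6, 0.70, 10.4 and 0.46 FPKM, so for Kdm6a and Rbbp7, both on the X chromosome, and for the other genes, genotype and the sex of the animals cannot be told apart. Among 24 other histone methyltransferases, found of 30 symbols written, 11 were higher and 5 lower in Cd73P in wild type, with a median of 0.42. Of expressed genes, 16.7% were higher and 44.4% lower in that comparison. None of the 24 was past the threshold between genotypes, beside 12.6% of expressed genes in Cd73N and 6.28% in Cd73P. Their medians between genotypes were -0.09 in Cd73N and -0.06 in Cd73P. Ehmt2, a methyltransferase of lysine 9, was the highest of them at 43.0 FPKM in wild-type Cd73N.

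Genes with the profile most like Ezh2 were found by the root mean square distance between log2(FPKM + 1) values centred over the 4 libraries. The nearest 5 of 9887 genes were B3galtl, Tmem176b, Lzts2, Neto2 and Mknk2, with distances from 0.033 to 0.067, and 205 genes lay within 0.2. For Ezh1 the nearest were Nrtn, Mef2d, Top1mt, Fkbpl and 1700020I14Rik, with distances from 0.015 to 0.046 and 624 genes within 0.2. Mef2d, a transcription factor of photoreceptors and other neurons, was the most abundant of these, at 51.7, 47.7, 82.7 and 95.7 FPKM. Over 4 libraries such likeness is a description only.

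Read placement limits some of the 10 values. The library kit did not mark strand, and annotated exons on the opposite strand overlap those of several of the 10 genes. Counted over the exons of all transcripts and summed over the overlapping genes, the overlap was 1578 bases for Rbbp4, 395 for Mtf2 and 178 for Suz12. It was 174 bases each for Ezh2 and Rbbp7. Sync, which overlaps Rbbp4, was at 0.02 to 0.17 FPKM, whereas Tmed5, which overlaps Mtf2, was at 1.81 to 5.68 FPKM and Txlng, which overlaps Rbbp7, at 4.60 to 8.50 FPKM. Gm17525, which also overlaps Rbbp4, had no FPKM value here, nor had Gm17629, which overlaps Ezh2, or Gm16706, which overlaps Suz12. Reads from such overlaps cannot be assigned to 1 gene. Ezh1, Eed, Jarid2, Phf19 and Aebp2 had no exon overlap on the opposite strand.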

How the data were processed

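RNA-seq of 4 sorted retinal fractions (1 library per group, grouped by sample title) was used as deposited. According to the methods and the submitters' processing notes, the authors mapped single-end reads of 36 bases to mm9 (TopHat2 2.0.8b) and derived gene FPKM for RefSeq genes (Cufflinks 2.1.1) (base calls: bcl2fastq 1.8.4). The deposited tables hold FPKM, its lower and upper bound and a status. Rows sharing a symbol were summed (234 symbols), 728 small RNA symbols were left out, and genes without status OK in either library of a pair were left out of that pair. FPKM was compared as log2(FPKM + 1) at 1.5-fold, with SE as the width of the bounds over 4. Profiles were compared among genes with 1 row, status OK in all libraries and an FPKM of at least 5 in 1 of them. The genes, lists, motifs and settings were chosen with earlier results of these data known, and all 10 PRC2 genes, all listed partners, Nt5e and the 5 nearest profiles of Ezh2 and Ezh1 are named by rule; Xist, Ddx3y, Sync, Tmed5 and Txlng were added after their values were seen. One marker is not reported here. Other lists are given by counts, and those of amacrine, retinal ganglion, horizontal, microglial and vascular cells are in the closing section. Coordinates are on mm9 with 1 added to the listed start. Exons came from GENCODE on the same build, repeated stretches from blastn 2.17.0, and promoters from RefSeq on GRCm38.p6. The counting step was tested on simulated data (Python 3.11.15, pandas 2.3.3, numpy 2.4.6). Alternatives were pseudocounts of 0.1, 5 or none, scaling by the median ratio or FPKM sum, a 2-fold threshold, FPKM of at least 5, and bounds that do not overlap.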

Additional observations from a re-analysis of the deposited data

Results flagged for a closer look

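The genotype difference had opposite signs in the fractions for 5 of the 10 genes. The share of all genes with opposite signs was not computed, so this count is not read as a result about the 10 genes. Taken as the log2 difference of Ezh2-cKO against wild type in Cd73P minus that in Cd73N, it was -0.69 for Ezh2 (0.17 in Cd73N and -0.52 in Cd73P), 0.41 for Ezh1 (-0.11 and 0.30) and -0.31 for Mtf2 (0.17 and -0.14). It was -0.21 for Aebp2 (0.12 and -0.09) and -0.09 for Phf19 (0.08 and -0.01). With 1 library per group these differences between the fractions were not tested. The SE from the deposited bounds was 0.10 for Ezh2, 0.08 for Ezh1, 0.09 for Mtf2, 0.12 for Aebp2 and 0.08 for Phf19, counting error only. Several of the single genotype differences were small beside their own SE. In Cd73N and Cd73P their sizes were 1.46 and 1.05 SE for Aebp2 and 1.57 and 0.15 SE for Phf19. Ezh1 in Cd73N was at 1.73 SE. Scaling moved the count of genes with opposite signs to 6 with the median ratio, adding Eed (0.04 in Cd73N and -0.15 in Cd73P), and to 7 with the FPKM sum. The latter gave Ezh1 the same sign in both fractions (0.02 and 0.26) and made Eed (0.11 and -0.23), Rbbp7 (0.07 and -0.16) and Jarid2 (0.0003 and -0.61) opposite.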

How the results depend on the processing

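No replicate could be left out and no replicate block fitted with 1 library per group. No paired analysis was possible because no test was run. In Cd73P, 1 gene was lower between genotypes (instead of 0) with a pseudocount of 0.1 and with none (Ezh2) and with FPKM sum scaling (Jarid2). Cd73P against Cd73N in wild type had 5 higher genes with FPKM sum scaling and 1 with a 2-fold threshold (Jarid2), instead of 3, and in Ezh2-cKO 1 lower gene with a 2-fold threshold (Ezh2), instead of 3. The other counts stayed within 1.5 times, and the Ezh1 share of the catalytic pair moved by less than its SE with the midpoint of the bounds. The median of the 10 genes turned positive in Cd73N between genotypes under both scalings (0.02 and 0.09) and turned negative (-0.02) with a pseudocount of 0.1 in Ezh2-cKO between fractions. No called gene changed sign. Single genes changed sign 5 times in Cd73N between genotypes and 2 times, both Phf19, between the fractions of Ezh2-cKO. What cannot be given from these data is the spread between animals or sorts, since the bounds cover counting error only.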

Other observations

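Microglia markers were lower past 1.5-fold in Cd73P in 8 of 8 genes in both genotypes, at a median of 20.3% and 19.2% of Cd73N, a smaller reduction than that of cone, Müller glia or bipolar markers. Ezh2 was at 38.3% in wild type and 21.6% in Ezh2-cKO. In Cd73N they summed to 100.4 FPKM in wild type and 147 FPKM in Ezh2-cKO, with 4 of 8 higher, C1qb, a complement component, being the highest. Vascular markers were lower in Cd73P in 4 of 7 genes in wild type, retinal ganglion cell markers in 5 of 9, amacrine markers in 3 of 8 and horizontal cell markers in 2 of 6. In the same order, 1, 0, 1 and 0 genes were higher, and 1, 4, 3 and 5 were below 1 FPKM in both libraries. Of all genes, 27.9% were lower and 9.07% higher in that comparison. Between genotypes in Cd73N, these 4 lists had 1, 2, 2 and 0 genes higher in Ezh2-cKO, and in Cd73P 1, 0, 0 and 0. In Cd73P, 2, 1, 1 and 1 genes were lower, and in Cd73N 0, 1, 0 and 0. Of all genes, 7.18% were higher and 1.71% lower in Cd73N, and 2.26% and 2.38% in Cd73P.

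Among the other histone methyltransferases, Suv39h2 had the widest difference towards Cd73P and Smyd2 and Setd7 the widest towards Cd73N, in both genotypes, and these 3 were chosen after their values were seen. Suv39h2, a methyltransferase of lysine 9 of histone H3, was at 1.29 and 1.42 FPKM in Cd73N and at 13.9 and 19.3 FPKM in Cd73P, wild type first. Smyd2, a methyltransferase of histones and of other proteins, was at 28.6 and 23.9 FPKM in Cd73N and at 2.72 and 2.30 FPKM in Cd73P. Setd7, which methylates lysine 4 of histone H3 and other proteins, was at 4.85 and 5.84 FPKM in Cd73N and at 0.53 and 0.22 FPKM in Cd73P.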
